A study of Mus musculus with 105 samples.

Results

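Meg3, Rian, Mirg, Dlk1 and Rtl1 are 5 genes of the imprinted Dlk1-Dio3 region on distal mouse chromosome 12. They were taken by symbol, as 5 of the 52016 genes in the bulk RNA-seq tables and 5 of the 34120 genes in the single-cell table. The rule that named them used no measured value, although earlier results of these data were known. All cells were female mouse embryonic stem cells (mESCs) from a C57BL6/J (B6) x Cast/EiJ (Cast) F1 cross, so that reads over a SNP could be assigned to the B6 or the Cast chromosome, and the study asked how X inactivation starts on the 2 X chromosomes when the cells differentiate. TX1072 (clone A3) carries a doxycycline-responsive promoter before Xist on the B6 chromosome and rtTA in Rosa26. TXdXicB6 and TXdXicCast derive from it, are a single clone each, and lack the X-inactivation center on the B6 and on the Cast X chromosome, respectively. Each line was sampled on day 0, in medium with 2i and LIF, and at days 1, 2, 3 and 4 after 2i/LIF withdrawal, with 3 bulk replicates per line and day (45 libraries). In addition, single TX1072 cells were sequenced from 1 culture per day.

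An imprinted gene is expressed mainly from the chromosome inherited from a given parent. In mouse tissues Meg3, Rian and Mirg, which are long noncoding RNAs (lncRNAs) that also host many snoRNAs and microRNAs, are expressed from the maternal chromosome. Dlk1, a transmembrane protein of the Delta-like family, and Rtl1, a retrotransposon-derived protein needed in the placenta, are expressed from the paternal one, as is mainly Dio3, a deiodinase that inactivates thyroid hormone. The region is known for losing its imprint in a part of cultured pluripotent stem cell lines. The labels do not say which strain was the mother, so alleles are named here by strain alone, and a shift towards either strain cannot be read as maternal or paternal.

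On chromosome 12 (GRCm38), Dlk1 (ENSMUSG00000040856, protein coding) spans 109452823 to 109463336, Meg3 (ENSMUSG00000021268, lincRNA) 109541001 to 109571726, Rian (ENSMUSG00000097451, processed transcript) 109603940 to 109661716 and Mirg (ENSMUSG00000097391, lincRNA) 109729764 to 109749460, all on the plus strand. Rtl1 (ENSMUSG00000085925, protein coding) spans 109589193 to 109600330 on the minus strand, between Meg3 and Rian. The deposited SNP list held 75 SNPs in the exons of Meg3, 115 in those of Rian, 44 in those of Mirg, 18 in those of Dlk1 and 8 in those of Rtl1. The alleles of the lncRNAs could thus be told apart at more positions than those of Rtl1. How many of these positions had reads was not tested. In the single cells, read mainly at the 3′ end, 14.2 to 18.4% of Meg3 UMIs per day were assigned to an allele. The 25 bases around a SNP near the 3′ end of each lncRNA, where the single-cell protocol reads, are shown to make plain what separates the alleles. They are exonic, on the plus strand, and carry the B6 base in capitals at position 13 from the 5′ end.
Meg3, chr12:109571648-109571672, A13G in Cast: tgaggcagccgcAatgtgcttagaa
Rian, chr12:109660841-109660865, A13G in Cast: gctgagctcacaAagactgaggcag
Mirg, chr12:109749130-109749154, G13A in Cast: tctctcgcttacGacaaccgacaac

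The promoter of Meg3 is shown because the results turn on RNA from the 2 alleles of this gene. Promoter use itself was not measured. The 300 bases around the first of 2 start sites listed for Meg3 in RefSeq (GRCm38.p6, chr12:109540746-109541045, plus strand) held none of the deposited SNPs, so the sequence read there is that of both strains as far as that list goes. Capitals mark a TGACGTCA, the cyclic-AMP response element, and a TATAAA.
Meg3 promoter: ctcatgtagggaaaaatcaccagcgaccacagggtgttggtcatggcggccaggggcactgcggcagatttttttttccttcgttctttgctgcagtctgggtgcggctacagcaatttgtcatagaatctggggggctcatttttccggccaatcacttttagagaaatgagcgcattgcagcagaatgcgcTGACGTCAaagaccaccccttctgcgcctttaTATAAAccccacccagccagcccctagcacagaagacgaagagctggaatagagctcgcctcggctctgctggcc
TGACGTCA, which is its own reverse complement, was in 1.79% of 32851 RefSeq promoters of this length, and TATAAA, searched on both strands, was in 13.6%. The reverse complement TTTATA also matched here, overlapping the marked TATAAA. Among the promoters listed for Meg3, Rian, Mirg and Dlk1, Meg3 alone held either. These are matches of letters and not measured binding sites.

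Some libraries have to be named before the results. The 3 day 0 libraries of TXdXicCast had degraded RNA and were fragmented more mildly per the labels, so for this line a difference from day 0 cannot be told apart from that of RNA quality. Bulk libraries held 19827011 to 39628784 counts in TX1072, 20246434 to 49962859 in TXdXicB6 and 16906263 to 57920260 in TXdXicCast. Of these, 17.9 to 20.3% were assigned to an allele in TX1072. In the deletion lines it was 29.9 to 34.9%, except in TXdXicB6 day 0 replicate 1 (5.21%), day 2 replicate 2 (9.57%) and day 2 replicate 1 (20.3%) and in TXdXicCast day 3 replicate 3 (22.9%). TX1072 was prepared with another kit and sequenced on another instrument than the deletion lines, and the 2 sets are therefore tested separately. The markers of the labelled cells moved with the days. In TX1072 the summed level of 6 markers of naive pluripotency fell from 4676 CPM (library-scaled counts) on day 0 to 251 on day 2 and 409.6 on day 4, and 4 markers of the formative epiblast rose from 223 to 1969 on day 2. Of the 7 fibroblast markers the summed level was 25 CPM on day 0 and 17.3 CPM on day 4, the most abundant on day 0 was Col1a2 with 10.6 CPM, and Col3a1, Lum, Dcn and Postn were each under 0.1 CPM on day 0. The sum hides opposite changes: on day 4, 3 of 6 tested fibroblast markers were higher and 2 lower, with Dcn (log2 6.39) and Postn (5.41) among the former and Col1a2 (-2.41) among the latter, and Lum was still under 0.1 CPM. Endoderm markers summed to 4.87 CPM on day 0 and 43.6 CPM on day 4, when 6 of 6 tested were higher, for example Foxa2 (log2 6.65) and Gata6 (3.19). Mesoderm markers summed to 14.5 CPM on day 0 and 224 CPM on day 4. Neural markers summed to 39.3 CPM on day 0, 28.5 CPM on day 2 and 62.5 CPM on day 4, mostly from Tubb3. On day 4, 3 of 4 were higher and 1 lower, with Neurod1 at log2 5.92, Pax6 at 2.35, Tubb3 at 0.66 and Sox1 at -1.01. Whether the change of cell state had a part in the results below was not tested.

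In TX1072 the mean levels of the 3 lncRNAs were above day 0 on each later day and highest on day 3, whereas that of Dlk1 was highest on day 2. Meg3 stood at 32.7, 30.9 and 51.0 CPM in the TX1072 replicates on day 0, at 58.7, 58.8 and 64.1 on day 1, at 290.1, 192 and 279 on day 2, at 254, 382 and 385 on day 3, and at 158, 197 and 162 on day 4. The replicates of day 0 lay below those of every later day, and those of day 4 lay below all of day 3. Relative to day 0, the log2 fold change of Meg3 was 0.67 ± 0.20 (SE) on day 1 (adjusted p = 0.0095, edgeR quasi-likelihood test with Benjamini-Hochberg adjustment over 18871 genes), 2.73 ± 0.21 on day 2 (adjusted p = 2.83e-09), 3.16 ± 0.21 on day 3 and 2.18 ± 0.20 on day 4. The day 1 call was lost without replicate 1 (log2 0.59, adjusted p = 0.0545). In bulk RNA, fewer cells that express a gene and less RNA per cell cannot be told apart.

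Rian, which hosts a large array of C/D box snoRNAs, had the highest level of the lncRNAs in bulk RNA. It measured 209, 156 and 220.5 CPM on day 0 in TX1072, 1060.2, 1001 and 978 CPM on day 2, 1459, 1702 and 1644 CPM on day 3 and 1023, 764 and 854 CPM on day 4. Its log2 fold change was 0.53 ± 0.14 (SE) on day 1, 2.38 ± 0.15 on day 2, 3.04 ± 0.15 on day 3 and 2.17 ± 0.14 on day 4. Mirg, which hosts the distal microRNA cluster, followed the same course at a lower level. It stood at 33.3, 34.2 and 40.1 CPM on day 0 and at 216, 289 and 298 CPM on day 3, and its log2 fold changes were 0.82 ± 0.14, 2.57 ± 0.14, 2.90 ± 0.15 and 2.05 ± 0.14 (SE) on days 1 to 4. Per kilobase of exon, the level on day 3 was 87.8 CPM for Rian, 36.7 for Mirg, 18.8 for Meg3 and 0.802 for Dlk1.

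Dlk1 was expressed at the edge of what these libraries resolve. Its level in TX1072 was 1.30, 1.51 and 2.65 CPM on day 0, from 40 to 59 counts. It was 8.03, 7.02 and 8.56 CPM on day 2 and 2.53, 3.05 and 2.52 CPM on day 4, which overlaps day 0. The fold change passed the test on day 1 (log2 1.53 ± 0.30 SE), day 2 (2.14 ± 0.30) and day 3 (1.35 ± 0.30), and on day 4 it was 0.60 ± 0.31 (adjusted p = 0.102 by edgeR), a call gained without replicate 3 (log2 0.99, adjusted p = 0.0416) and without a filter on low counts (adjusted p = 0.0314). Rtl1 had 0 to 7 counts in each TX1072 library and 0 to 8 over all 45, passed no filter on low counts and was not tested.

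In all, 15 of the 16 comparisons of the 4 tested genes with day 0 passed in TX1072, all as increases. The background was 47.0, 56.0, 56.1 and 59.6% of the tested genes called on days 1 to 4, and 23.5, 28.8, 28.1 and 30.2% called higher, so a call alone says little on these days, and the size of the change says more. Over all genes tested the median log2 fold change on day 4 was -0.03.

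**Figure D1:**
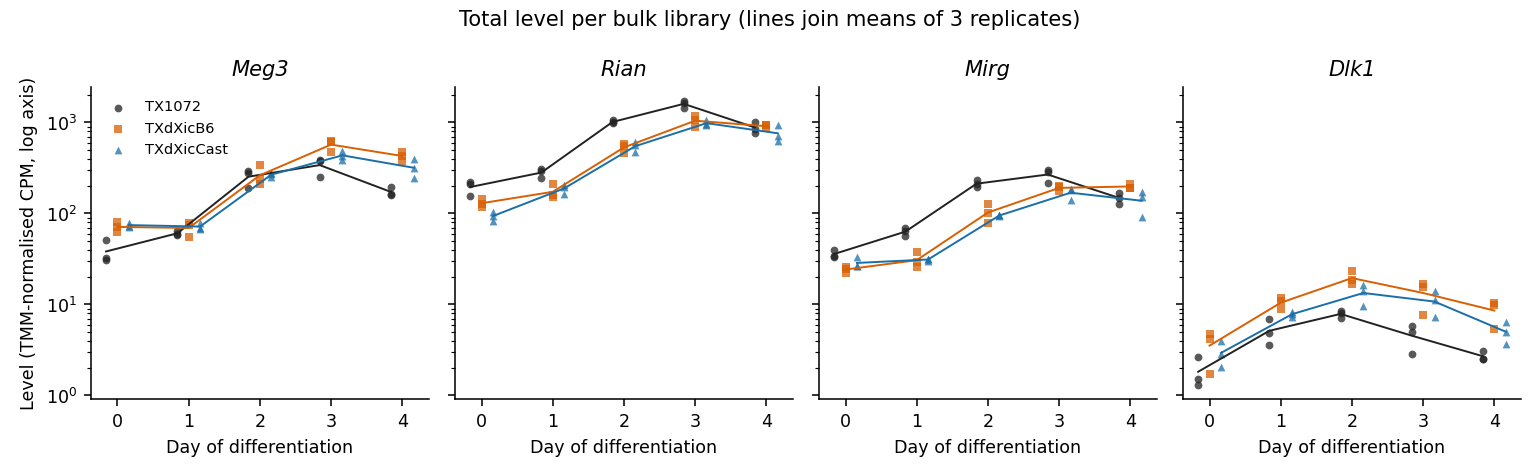
Total level in CPM (log axis) against day of differentiation for Meg3, Rian, Mirg and Dlk1, with each library as a point and the mean of 3 replicates as a line for TX1072, TXdXicB6 and TXdXicCast. The lncRNAs peaked on day 3 in TX1072, at means of 340.3 CPM (Meg3), 1602 CPM (Rian) and 268 CPM (Mirg), and Dlk1 peaked on day 2 at 7.87 CPM.

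The deletion lines showed the same genes rising, although on day 1 neither Meg3 nor Mirg passed the test. Meg3 was 71.2 ± 8.55 CPM (SD, n = 3) on day 0 and 69.3 ± 12.9 on day 1 in TXdXicB6, and 74.5 ± 4.31 and 71.8 ± 5.73 CPM in TXdXicCast, so that the replicates of these days overlapped in both lines. It then rose to 263 ± 67.5 and 267 ± 12 CPM on day 2 and to 571 ± 81.3 and 435 ± 46.6 CPM on day 3. Against day 0, the log2 fold changes of Meg3 on day 1 were -0.04 ± 0.17 (SE) and -0.05 ± 0.17 (adjusted p = 0.874 and 0.805, edgeR), and those of Mirg 0.34 ± 0.17 and 0.12 ± 0.17 (adjusted p = 0.113 and 0.566). Without a filter on low counts, Mirg passed in TXdXicB6 (adjusted p = 0.0455). The test of this difference from TX1072 was not made, since the tables were prepared apart. Rian rose by log2 0.42 ± 0.14 on day 1 in TXdXicB6 (adjusted p = 0.0188, edgeR; lost without any 1 of the 3 replicates, with adjusted p from 0.0649 to 0.0880) and by 1.01 ± 0.14 in TXdXicCast. On day 4 the fold changes in TXdXicB6 were 2.59 (Meg3), 2.81 (Rian), 3.03 (Mirg) and 1.27 (Dlk1), and in TXdXicCast 2.09, 3.02, 2.27 and 0.82. The last of these (adjusted p = 0.0336 by edgeR) was lost without replicate 1 (adjusted p = 0.112) or replicate 2 (0.207).

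Each deletion line had 14 of 16 comparisons with day 0 called, all as increases. The share of all genes called in either direction was 45.7, 56.1, 57.8 and 59.5% on days 1 to 4 in TXdXicB6 and 58.9, 66.4, 68.6 and 69.8% in TXdXicCast. Between the lines, 1 of 20 comparisons on the same day passed, beside a background of 19.8, 0.402, 0.372, 1.26 and 5.86% of genes on days 0 to 4. It was Rian on day 0, at 83.6, 104 and 93.1 CPM in TXdXicCast against 118, 128 and 143 CPM in TXdXicB6 (log2 -0.47 ± 0.14 SE, adjusted p = 0.0218 by edgeR), on the day of the degraded RNA. This call was lost without replicate 1 (adjusted p = 0.0843) and without replicate 3 (adjusted p = 0.204). With the replicate number as a block, 2 of the 20 comparisons passed, and with DESeq2 also 2. The second in each case was Mirg on day 4, lower in TXdXicCast (log2 -0.53, adjusted p = 0.0349 with the block, and -0.52, adjusted p = 0.0409 with DESeq2). Without a filter on low counts 4 passed by edgeR, Rian on day 0 and Meg3 (-0.43, adjusted p = 0.0206), Mirg (-0.52, 0.00257) and Dlk1 (-0.77, 0.00211) on day 4.

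On day 0 the 3 lncRNAs came mostly, but not wholly, from the Cast chromosome, and by day 2 they came from both. The B6 share of allele-assigned counts of Meg3 in TX1072 was 10.7, 15.5 and 12.3% in the replicates on day 0, 29.7, 26.7 and 29.8% on day 1, 52.5, 49.2 and 46.5% on day 2, 49.7, 52.0 and 51.8% on day 3 and 46.3, 41.9 and 44.8% on day 4. The replicates of day 0, day 1 and the later days thus formed 3 separate ranges. Over the replicates, 77 B6 and 540 Cast counts were behind the share on day 0, and 1372 and 1743 behind that on day 4. Rian measured 11.8, 12.7 and 14.4% on day 0, 27.0, 25.5 and 25.5% on day 1, 45.5, 44.8 and 42.2% on day 2 and 46.0, 44.5 and 44.3% on day 4. Mirg measured 11.1, 12.5 and 16.6% on day 0, 34.8, 31.1 and 28.1% on day 1, 49.9, 51.0 and 46.6% on day 2 and 48.1, 46.8 and 49.7% on day 4. The replicates of Rian lay below those of Mirg on days 1 and 2. Whether the shares of the 3 genes differed was not tested.

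**Figure D2:**
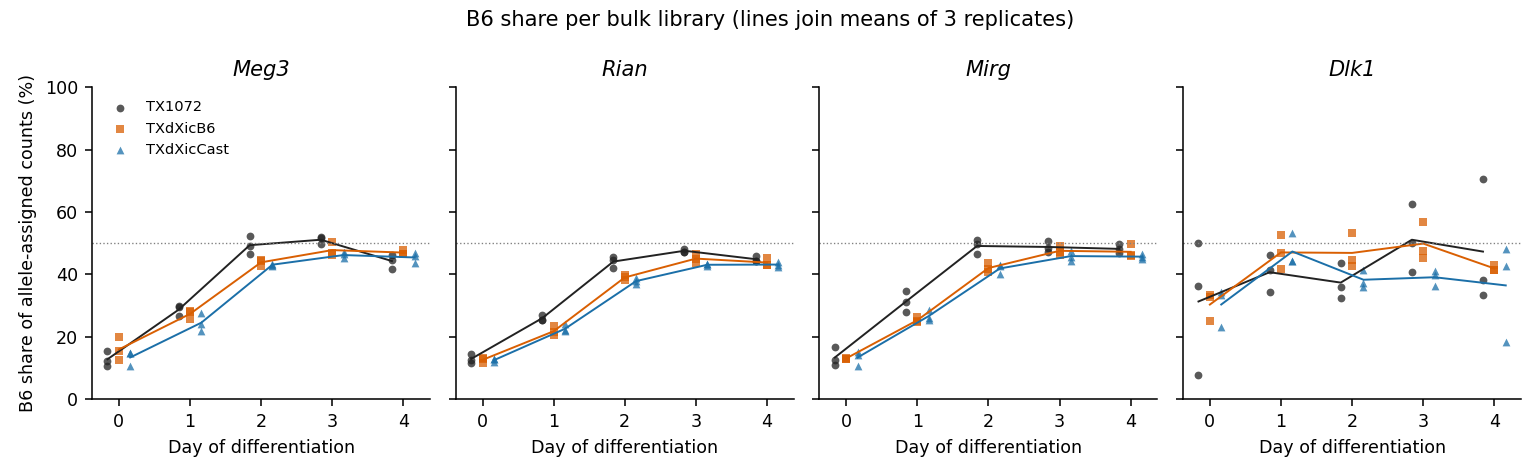
B6 share of allele-assigned counts, in percent, against day for Meg3, Rian, Mirg and Dlk1, with each library as a point and the mean of 3 replicates as a line for each cell line, and a dotted line at 50%. In all 3 lines the lncRNAs went from means of 12.5 to 16.0% on day 0 to means of 43.2 to 48.2% on day 4, whereas the points of Dlk1 scattered from 7.69 to 70.6%.

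The same course was measured in both deletion lines. Over all 27 values of Meg3, Rian and Mirg on day 0 the B6 share lay between 10.7 and 20.0%, with a median of 12.9%. On day 1 it was 20.5 to 34.8%, on day 2 36.9 to 52.5%, on day 3 42.7 to 52.0% and on day 4 41.9 to 49.8%, so the values of day 0, day 1 and day 2 did not overlap. The highest value on day 0, 20.0% for Meg3, was that of TXdXicB6 replicate 1, which had 95 allele-assigned Meg3 counts and the lowest allele-assigned share of all libraries. By line, Meg3 averaged 16.0 ± 3.77% (SD, n = 3) on day 0 and 47.0 ± 0.835% on day 4 in TXdXicB6, and 13.4 ± 2.28 and 45.5 ± 1.76% in TXdXicCast. Taking 90% of the counts on 1 allele as monoallelic, Meg3, Rian and Mirg were monoallelic in 0 of the 15 groups. With 80% as the limit they were so towards Cast in all 9 combinations of gene and line on day 0, and in none later. Over all genes, the B6 share of the allele-assigned counts was 51.0 to 51.4% in the TX1072 libraries and 50.5 to 51.3% in those of the deletion lines.

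The ratio of the alleles was tested within libraries. In TX1072 the log2 ratio of B6 to Cast of Meg3 was -2.81 ± 0.15 (SE) on day 0 (adjusted p = 5.69e-24, edgeR quasi-likelihood test), -1.32 ± 0.10 on day 1, -0.05 ± 0.06 on day 2 (adjusted p = 0.554), 0.07 ± 0.06 on day 3 (adjusted p = 0.388) and -0.34 ± 0.07 on day 4 (adjusted p = 3.08e-05). An excess of Cast for Meg3 thus passed on day 4 and not on days 2 and 3. Without the term that pairs the alleles of a library (no replicate block), the day 4 call of Meg3 was lost (adjusted p = 0.272), as were those of Rian on days 2, 3 and 4 (0.0590, 0.539 and 0.134). Rian kept an excess of Cast on each day, of log2 -0.34 ± 0.04 on day 2, -0.14 ± 0.04 on day 3 (adjusted p = 0.00292; lost without replicate 3, adjusted p = 0.0979, and with DESeq2, adjusted p = 0.0524) and -0.29 ± 0.04 on day 4. Mirg did not differ detectably from 0 from day 2 on (-0.05, -0.07 and -0.11, adjusted p = 0.481, 0.306 and 0.165 by edgeR). With a library size for each allele, Mirg passed towards Cast on days 3 and 4 (-0.14 and -0.19, adjusted p = 0.0373 and 0.0101). Of the 20 ratios of the 4 genes in TX1072, 11 passed, all towards Cast, beside 44.1, 46.3, 42.6, 35.7 and 35.8% of all genes in either direction on days 0 to 4.

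In the deletion lines all 30 ratios of the lncRNAs passed, and each was towards Cast. Of all genes, 36.7, 44.0, 36.2, 41.7 and 39.6% passed in either direction on days 0 to 4 in TXdXicB6 and 45.3, 43.1, 43.3, 36.8 and 38.3% in TXdXicCast. On day 0 they ranged from -2.81 to -2.60. On day 4 they were -0.17 ± 0.05 (SE) for Meg3, -0.36 ± 0.04 for Rian and -0.17 ± 0.05 for Mirg in TXdXicB6, and -0.27 ± 0.05, -0.40 ± 0.04 and -0.25 ± 0.05 in TXdXicCast. Rian had the largest remaining excess of Cast among the 3 genes on day 4 in both deletion lines, but the difference between the genes was not tested. The calls of Meg3 and Mirg on day 3 and of Mirg on day 4 in TXdXicB6 were lost without replicate 1 or without replicate 2 (adjusted p = 0.0719 to 0.208), and that of Meg3 on day 3 also with DESeq2 (adjusted p = 0.0795).

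The change of the ratio from day 0 is the most direct measure of the shift. It was 1.49 ± 0.20 (SE), 2.76 ± 0.17, 2.88 ± 0.17 and 2.47 ± 0.17 on the log2 scale for Meg3 on days 1 to 4 in TX1072, 1.26 ± 0.08, 2.42 ± 0.07, 2.63 ± 0.07 and 2.47 ± 0.07 for Rian, and 1.62 ± 0.15, 2.69 ± 0.14, 2.67 ± 0.14 and 2.63 ± 0.14 for Mirg. All 12 passed towards B6, whereas 11.4, 14.8, 13.6 and 15.0% of all genes passed in either direction and 5.83, 7.59, 6.82 and 7.25% passed towards B6. By the p-value of the edgeR test, the change of Rian on day 4 ranked 1 of 13510 genes, that of Mirg 15 and that of Meg3 50. By size the 3 ranked 417 (Rian), 395 (Mirg) and 418 (Meg3). On day 4 in TXdXicB6 the change was 2.42 ± 0.12 for Meg3, 2.45 ± 0.07 for Rian and 2.55 ± 0.14 for Mirg, and in TXdXicCast 2.37, 2.39 and 2.39. In these lines, too, all 24 changes of the lncRNAs passed, beside 9.49, 12.3, 15.4 and 16.3% of genes on days 1 to 4 in TXdXicB6 and 15.2, 19.8, 19.9 and 21.6% in TXdXicCast, and all 24 also passed without the 2 libraries of lowest allele-assigned share.

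The lines did not differ detectably in the alleles of these genes. Of 20 differences of the ratio on the same day (TXdXicCast minus TXdXicB6), 0 passed in edgeR and 0 in DESeq2, and 2 had an unadjusted p below the threshold of 0.05, with 1.73, 0.916, 2.53, 3.72 and 4.11% of all genes called on days 0 to 4. These were Dlk1 on day 2 (log2 -0.49, unadjusted p = 0.0417) and Rian on day 3 (-0.11, unadjusted p = 0.0306). On day 4 the difference and its 95% interval were -0.10 (-0.23 to 0.03) for Meg3, -0.04 (-0.14 to 0.06) for Rian, -0.09 (-0.22 to 0.04) for Mirg and -0.07 (-0.61 to 0.48) for Dlk1 on the log2 scale. The intervals of the lncRNAs were narrow and that of Dlk1 was wide. The change of the ratio since day 0 differed between the lines in 0 of 16 comparisons in edgeR and in DESeq2, and 0 had an unadjusted p under 0.05, beside 0.151, 1.07, 2.05 and 2.56% of genes on days 1 to 4. For the change of the total level it was 1 of 16, Mirg on day 4, beside 4.60, 6.57, 9.12 and 15.0% of genes. The p-values here compare 2 clones.

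Both chromosomes contributed to the rise, the B6 one from a lower start. In CPM of allele-assigned counts, B6 Meg3 in TX1072 went from 4.66 ± 1.46 (SD, n = 3) on day 0 to 17.0 ± 1.24 on day 1, 122 ± 21.2 on day 2, 176 ± 42.0 on day 3 and 76.4 ± 9.38 on day 4. Cast Meg3 went from 32.2 ± 11.2 to 42.2 ± 1.28, 126 ± 24.7, 167 ± 32.9 and 96.9 ± 20.6. The B6 allele on day 3 was therefore 37.8 times, and the Cast allele 5.19 times, its own level on day 0. In absolute terms the mean rise was 172 CPM on B6 and 135 CPM on Cast, and the difference between them was not tested. Rian rose 29.6 times on B6 and 4.89 times on Cast by day 3, and Mirg 29.7 and 4.90 times.

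On day 1 in the deletion lines the mean of the Cast allele was below day 0 for Meg3 but not for Rian or Mirg. Total Meg3 was 0.974 and 0.964 times day 0 in TXdXicB6 and TXdXicCast, and the mean of the B6 allele was 1.51 times day 0 in TXdXicB6 and 1.67 times in TXdXicCast, while that of the Cast allele was 0.760 and 0.789 times. For Rian both alleles were above day 0, B6 at 2.21 and 3.55 times and Cast at 1.13 and 1.74 times, and for Mirg B6 was at 2.42 and 2.39 times and Cast at 1.07 and 1.01 times. The change of the ratio on day 1 passed the test for Meg3 in both lines, so that a shift towards B6 was measured on a day without a detected change in the total of Meg3. The separate change of each allele was not tested.

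**Figure D3:**
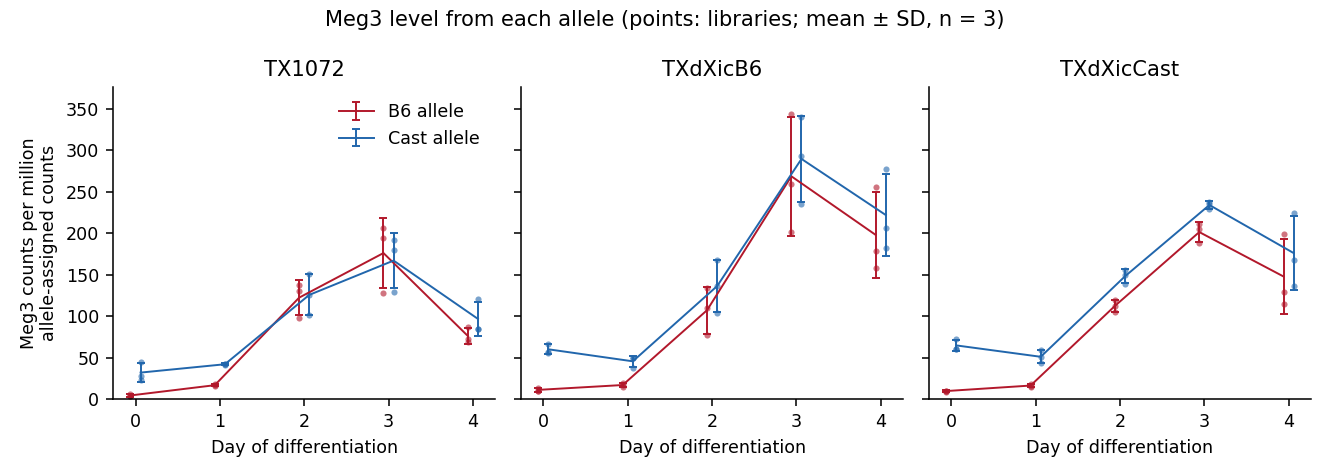
Meg3 level from the B6 (red) and the Cast (blue) allele, in CPM of allele-assigned counts, against day in TX1072, TXdXicB6 and TXdXicCast, with each library as a point and the mean ± SD of 3 replicates as lines with error bars. In TX1072 the alleles stood at 4.66 and 32.2 on day 0 and at 122 and 126 on day 2.

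The alleles of Dlk1 rested on few counts in TX1072 and on more in the deletion lines. The B6 and Cast counts in the TX1072 replicates on day 0 were 11, 13 and 14 in sum per library, and the B6 shares were 36.4, 7.69 and 50.0%. On day 2 the shares were 32.5, 36.1 and 43.6%, and on day 4 they were 70.6, 33.3 and 38.1% from 17 to 24 counts, so that every day overlapped with day 0. The log2 ratio was -1.12 ± 0.56 (SE) on day 0 (adjusted p = 0.0989, edgeR), and of the 5 days only day 2 passed (-0.72, adjusted p = 0.0482), a call lost without any 1 replicate (adjusted p = 0.0577 to 0.176) and with DESeq2 (0.172). Without replicate 3, day 0 passed (-1.92, adjusted p = 0.0378 by edgeR) and day 2 did not (adjusted p = 0.0577). In the deletion lines the ratio on day 0 was -1.16 in both (adjusted p = 0.00725 in TXdXicB6 and 0.00166 in TXdXicCast), towards the same chromosome as the lncRNAs. The counts were few on that day here too, at 9 to 58 per library in TXdXicB6 and 29 to 51 in TXdXicCast. The call in TXdXicB6 was lost without replicate 2 (-1.39, adjusted p = 0.115). On days 1 to 4 the ratio was -0.17, -0.14, -0.14 and -0.46 in TXdXicB6, of which day 4 passed (adjusted p = 0.0336, edgeR), and -0.21, -0.62, -0.60 and -0.53 in TXdXicCast, of which days 2, 3 and 4 passed (adjusted p = 0.000804, 0.0069 and 0.0423). Day 3 rested on 358 B6 and 403 Cast counts in TXdXicB6 and on 150 and 226 in TXdXicCast. The day 4 calls were lost without replicate 1 or 2 in TXdXicB6 (adjusted p = 0.188 and 0.115), there also with DESeq2 (0.0778), without replicate 2 or 3 in TXdXicCast (0.0843 and 0.607), and without a filter in both (0.0571 and 0.0757). The change of the ratio from day 0 passed on 0 of the 4 days in any line by edgeR and by DESeq2, with unadjusted p below the threshold on 0 days in TX1072, 3 in TXdXicB6 and 1 in TXdXicCast. It was 0.85 ± 0.71 on day 4 in TX1072 (adjusted p = 0.514). Rtl1 had 0 or 1 allele-assigned count in each library, and no share is given.

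**Figure D4:**
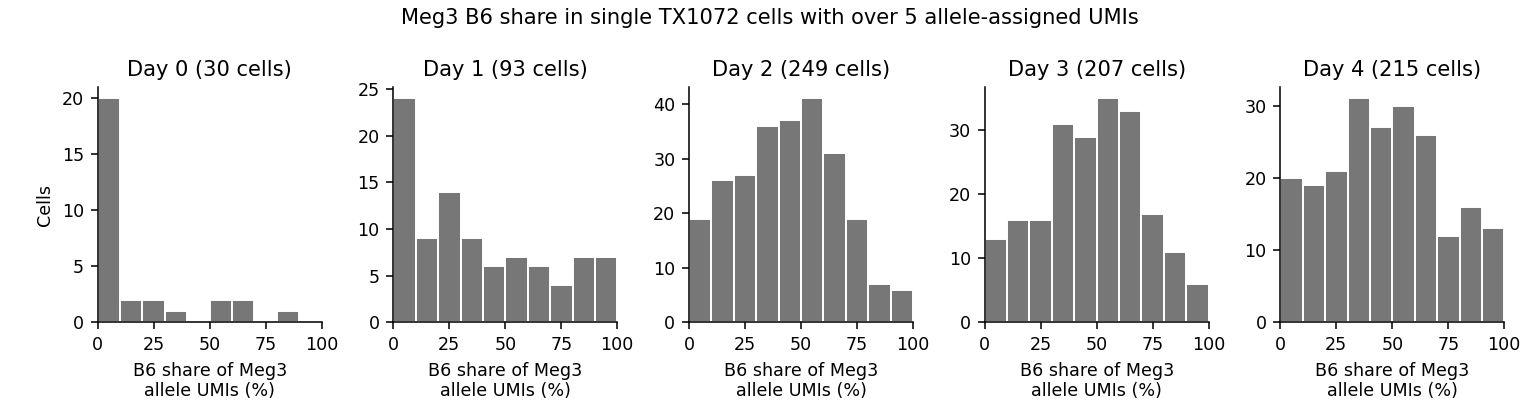
Histograms of the B6 share of allele-assigned Meg3 UMIs, in percent and in bars of 10 points, over single TX1072 cells with over 5 such UMIs, with 1 panel per day and the number of cells on the vertical axis, whose scale differs between panels. Of 30 cells on day 0, 18 had a share of 0% and fall in the leftmost bar, and of 215 cells on day 4, 151 lay between 20 and 80%.

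In the single cells, UMIs of both alleles were counted cell by cell. Of 2000 capture sites, 1472 cells were retained by the study (277, 325, 341, 257 and 272 on days 0 to 4), with a median of 132847 UMIs per cell. As there was 1 culture per day, no test was made, and the intervals are exact Clopper-Pearson intervals that cover counting error only. Per the labels, the cells of day 1 alone were also sequenced in an additional rapid run. A difference of day 1 from the other days cannot be told apart from that of sequencing. Meg3 was found in 83.4% of the cells on day 0, at 101 CPM over all cells, and in 94.8, 99.7, 98.8 and 99.6% on days 1 to 4, at 246, 752, 948 and 677 CPM. Thinned to 40000 UMIs per cell, the shares were 72.6, 89.2, 98.8, 96.5 and 97.8%. Sites without a cell also gave Meg3 UMIs: 54 sites recorded as empty, with a median of 10047.5 UMIs, held a mean of 8.13 Meg3 UMIs against 72.8 per cell, and 94.4% of them had at least 1. On day 0 the mean of the empty sites was 16.2% of that of the cells. The share of cells with a UMI is thus not a share of expressing cells. The classes below require over 5 allele-assigned UMIs, a minimum that 3 of the 54 empty sites also passed (1 on day 3 and 2 on day 4).

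The B6 share of all allele-assigned Meg3 UMIs was 10.7% (95% interval 8.32 to 13.5%, 589 UMIs) on day 0, 32.2, 45.4 and 48.5% on days 1 to 3 and 45.6% (44.3 to 46.9%, 5657 UMIs) on day 4, while over all genes it was 50.8 to 51.3% on each day. By 3′-end counts, Meg3 was above Rian in the single cells (101 against 27.9 CPM on day 0 and 948 against 239.5 CPM on day 3), the reverse of the order in bulk RNA. The B6 share of Rian went from 8.62 to 31.1, 42.9, 42.4 and 44.6%. Mirg, with 33 to 414 allele-assigned UMIs per day, went from 9.09 to 42.4, 35.0, 31.5 and 39.9%. Empty sites held UMIs of these genes too, at far lower depth. A Rian UMI was in 50% and a Mirg UMI in 11.1% of the 54 sites, against 46.9 and 13.4% of the cells on day 0. For Rian on day 0 the mean of the empty sites was 5.07% of that of the cells. The mean bulk shares of Meg3 were 12.8, 28.7, 49.4, 51.1 and 44.3% on the same days. Replicate 1 of the bulk came from the same culture as the cells, so the assays are not independent samples.

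Cells were called monoallelic (MA) when all UMIs lay on 1 allele, biallelic (BA) when each allele had at least 20%, and skewed otherwise. On day 0, 30 cells passed the minimum of over 5 allele-assigned Meg3 UMIs, of which 0 were MA-B6, 18 MA-Cast, 5 skewed and 7 BA. On day 1, 5 of 93 cells were MA-B6, 20 MA-Cast, 22 skewed and 46 BA. On day 2, 193 of 249 cells were BA and 17 MA-Cast, on day 3 162 of 207 were BA, and on day 4 151 of 215 were BA, 11 MA-Cast and 11 MA-B6. The BA share rose in these cultures from 23.3% (95% interval 9.93 to 42.3%) on day 0 to 49.5% (38.9 to 60.03%) on day 1 and 77.5% (71.8 to 82.5%) on day 2, and was 70.2% (63.6 to 76.3%) on day 4. With 30% on each allele required instead, it was 30.1% on day 1. The median number of allele-assigned UMIs per classed cell also increased from 8.5 on day 0 to 9, 17, 21 and 21, and its part in the classes was not tested. Between day 0 and day 1, where that median was 8.5 and 9, the MA-Cast share was 60 and 21.5%. These shares are those of Meg3 alone. Rian was BA in 4 of 16 cells on day 0 and in 8 of 26, 38 of 99, 43 of 87 and 29 of 80 on days 1 to 4. On day 4, 16 of its cells were MA-B6 and 21 MA-Cast. Mirg was BA in 8 of 24 cells on day 2 and 3 of 18 on day 4. The classed cells of Rian had medians of 8, 10 and 10 allele-assigned UMIs on days 2 to 4, and the part of this was not tested.

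Rian and Mirg UMIs in the same cells gave a second reading of the class. In the cells that were MA-Cast for Meg3, Rian and Mirg together had 0 B6 UMIs of 27 on day 0, a B6 share of 26.7% of 90 UMIs on day 1 and 52.0% of 50 on day 2, 4.17% of 48 on day 3 and 36.7% of 30 on day 4. In the Meg3 BA cells it was 21.1, 39.5, 42.2, 45.5 and 44.1%. In the MA-B6 cells it was 83.3% of 6 UMIs on day 1, 35.0% of 20 UMIs on day 2, 72.2% of 36 on day 3 and 69.8% of 43 on day 4. Cells classed MA-Cast for Meg3 thus carried B6 UMIs of Rian or Mirg on days 1 to 4. On day 0 none was found among 27 allele-assigned UMIs of 18 cells, which by counting error alone allows a B6 share of up to 12.8%. Unspliced transcripts, which are closer to current transcription, were 28.1 to 32.1% of Rian UMIs and 2.12 to 2.52% of Meg3 UMIs. Their B6 share for Rian was 9.76, 28.6, 57.2, 46.4 and 48.7% on days 0 to 4. For Mirg it was 1.63, 28.5, 32.7, 39.1 and 57.6%. For Meg3 it was 6.67, 10.6, 42.7, 48.5 and 44.4%. The pooled intervals count each UMI as independent, although many came from the same cells, so they are too narrow to test a difference. As a description only, those of unspliced and spliced UMIs were apart in both directions. The unspliced share was the lower on day 1 for Meg3 (4.37 to 20.6% against 29.9 to 34.8%) and Mirg (23.0 to 34.4% against 35.0 to 50.4%). It was the higher on day 2 for Rian (53.4 to 61.0% against 40.9 to 46.4%) and on day 4 for Mirg (53.6 to 61.5% against 34.4 to 45.9%). In every other combination of these 3 genes and a day the intervals overlapped.

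Dlk1 was found in 5.05, 23.7, 29.3, 18.3 and 14.7% of the cells on days 0 to 4, at 1.05, 4.83, 6.31, 4.48 and 2.24 CPM. Of the 54 empty sites, at their far lower depth, 3.70% had a Dlk1 UMI, at 3.15 CPM (2 UMIs), a share within the interval of day 0 (2.79 to 8.33%). The 277 cells of day 0 held 41 Dlk1 UMIs. Since depth differed and the empty sites held 2 UMIs, these values do not decide whether Dlk1 on day 0 was above this background. Dlk1 had at most 6 allele-assigned UMIs per day. Across cells of a day, Spearman's rho of the level of Meg3 was 0.19 to 0.56 with Rian and -0.01 to 0.15 with Dlk1. These values are descriptions over 257 to 341 cells that share their depth and culture.

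Other genes of the region moved in both directions. Of the other genes listed for it, B830012L14Rik, a lincRNA between Rian and Mirg, followed the lncRNAs, with log2 fold changes of 0.88, 2.51, 2.80 and 1.92 on days 1 to 4 in TX1072 and a mean B6 share of 10.4% on day 0 and 47.6% on day 4. Begain, upstream of Dlk1, rose as well (0.94, 1.49, 1.06 and 0.93). Dio3 and Dio3os, which lie on opposite strands and do not overlap in the annotation, fell, Dio3 from 20.6 CPM on day 0 to 1.84 on day 1 and 0.601 on day 2 (log2 -3.49 and -5.13), and Dio3os by log2 -3.85 and -3.70 on these days. All of these passed the edgeR test. Dio3 on day 0 was also mostly from the Cast chromosome, with 5 B6 and 137 Cast counts over the TX1072 replicates, though it has only 3 exonic SNPs. On that day Dio3, Meg3, Rian and Mirg thus came mostly from the same chromosome. On day 4, at 0.131 times its day 0 level, Dio3 had a log2 ratio of 0.20 ± 0.94 (SE, adjusted p = 0.899, edgeR). This was a change of 4.97 ± 1.22 from day 0 (adjusted p = 0.00185, edgeR).

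Between Dlk1 and Dio3, by a list drawn up after the values were seen, 97 genes on the plus strand included 59 microRNA and 23 snoRNA genes. In TX1072 56 of them had counts enough to be tested, and on day 2 55 were higher and 1, Dio3, was lower, with a median log2 fold change of 2.42 beside -0.000242 over all genes. On day 4 49 were higher and 1 lower. Of all genes, 28.8 and 30.2% were higher on these days. In the deletion lines 70 were tested, of which 46 in TXdXicB6 and 45 in TXdXicCast were higher on day 2, and 65 and 57 on day 4. Of all genes, 28.9% in TXdXicB6 and 34.5% in TXdXicCast were higher on day 2, and 30.0 and 36.2% on day 4. Of the 17 genes on the minus strand, 3 were tested and 0 were higher on day 2 or day 4. The region's small RNA genes are counted here from total RNA, in which they cannot be told apart from their host transcripts. Many had low counts, for example Mir154 with a mean of 6.07 over the TX1072 libraries. The filter on low counts could pass such a gene through the days on which it was high. The number of genes higher than day 0 can thus be set in part by the filter and is no independent support for a rise.

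The minus-strand gene Rtl1 is covered by an antisense transcript that carries 6 microRNA hairpins, in mouse tissues made from the opposite parental chromosome. Their 11 mature sequences (RefSeq) lie within Rtl1 on the opposite strand and are shown, with bases 2 to 8 (the seed) in capitals, as the products that lie across its coding sequence.
miR-431-5p: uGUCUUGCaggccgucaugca
miR-431-3p: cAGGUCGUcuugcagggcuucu
miR-433-5p: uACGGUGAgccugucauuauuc
miR-433-3p: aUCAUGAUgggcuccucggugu
miR-127-5p: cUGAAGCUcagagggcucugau
miR-127-3p: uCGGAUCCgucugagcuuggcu
miR-434-5p: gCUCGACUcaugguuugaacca
miR-434-3p: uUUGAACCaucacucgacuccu
miR-432: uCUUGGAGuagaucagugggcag
miR-136-5p: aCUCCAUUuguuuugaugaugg
miR-136-3p: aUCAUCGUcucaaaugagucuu
No 2 of them shared a seed. Of the 6 hairpins 5 were tested, and all 5 were higher on day 2 in TX1072, from log2 1.76 (Mir431) to 2.61 (Mir434). Of all genes, 28.8% were higher on day 2 and 30.2% on day 4. The filter on low counts could pass these hairpins through the days on which they were high, so the count of 5 is no independent support. On day 4 Mir433, Mir127 and Mir434 passed, while Mir432 (0.97, adjusted p = 0.0631 by edgeR) and Mir431 (-0.62, adjusted p = 0.589) did not. Mir433 had 61 counts over the 3 TX1072 replicates on day 0 and 155, 384, 303 and 197 on days 1 to 4, Mir127 had 34, 69, 208, 169 and 127, and Mir434 had 20, 40, 143, 119 and 64. Mir432 had 43, 54, 214, 196 and 97, Mir431 had 7, 11, 27, 32 and 5, and Mir136, which was not tested, had 1, 7, 15, 13 and 9. Rtl1 itself, over the same stretch, had at most 7 counts in any TX1072 library. The strand setting of the counting is not given in the sources used here. How far the counting kept reads of Rtl1 apart from those of its antisense transcript was not tested.

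In bulk RNA, the imprinted genes measured on other chromosomes came from both alleles on day 0. Of 28 such genes, 17 had at least 50 allele-assigned counts on each day over the TX1072 replicates, and their B6 share of summed counts was 41.6 to 79.7% on day 0, with a median of 52.9%, and 30.9 to 63.4% on day 4, with a median of 50.2%. None had 90% or more on 1 allele on any day. The single cells differed for Snrpn, with a B6 share of 4.79% of 146 allele-assigned UMIs on day 0 against 49.0% in bulk. H19, a maternally expressed lncRNA, stood at 52.9 and 50.2% on day 0 and day 4, Peg3, a paternally expressed zinc finger gene, at 59.7 and 59.7%, and Kcnq1ot1 at 54.7 and 54.7%. The largest changes of share were falls of 21.7 points in Usp29, 21.2 in Sgce and 20.3 in Peg10, each a change away from B6. The ratio change on day 4 passed in 0 of 6 tested genes expressed from the maternal chromosome in tissues, and in 4 of 17 paternal ones (1 towards B6 and 3 towards Cast), beside 15.0% of all genes. The total level of most nevertheless rose, in 5 of 7 maternal and 15 of 20 paternal genes, for example H19 (log2 8.22), Peg10 (4.23) and Peg3 (3.48), as 30.2% of all genes did. Lower were 1 maternal gene, Igf2r (-0.59), and 3 paternal ones. Of 16 neighbours of the region on chromosome 12, 14 had enough allele-assigned counts, and their share changed by -10.5 to 12.7 points from day 0 to day 4.

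**Figure D5:**
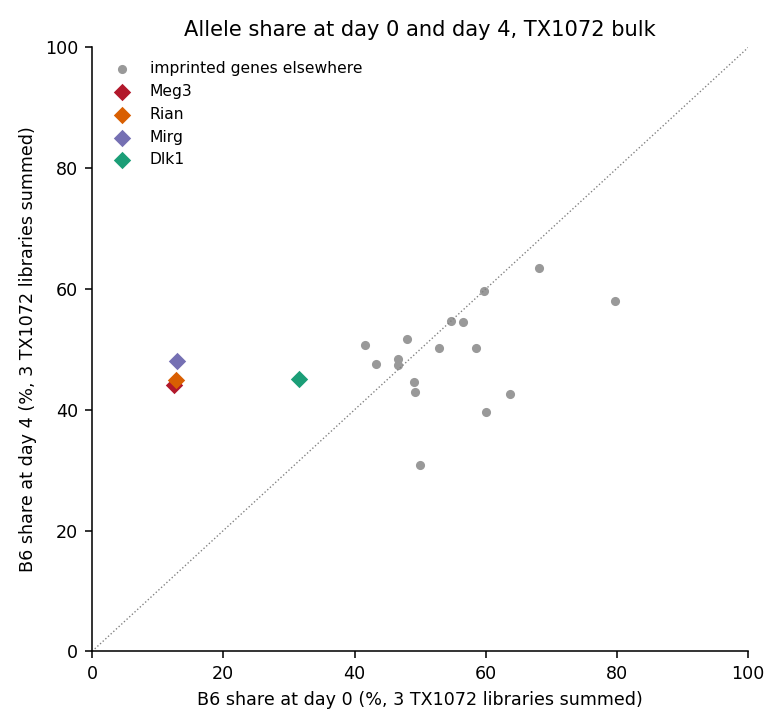
B6 share on day 4 against that on day 0, in percent of the allele-assigned counts summed over the 3 TX1072 replicates, for Meg3, Rian, Mirg, Dlk1 (coloured) and 17 imprinted genes on other chromosomes (grey), with the diagonal of no change. The grey points start between 41.6 and 79.7%, to the right of the coloured ones, of which Dlk1 rests on 12 B6 and 26 Cast counts on day 0.

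Of 20 tested genes that act on imprints in embryonic cells, 4 were higher, 10 lower and 6 not called on day 4 in TX1072. Zfp57, a zinc finger protein that keeps imprints methylated, fell by 2.88 on the log2 scale, Tet2, which oxidises methylcytosine, fell by 4.75, and Uhrf1, the partner of the maintenance methyltransferase, fell by 1.59. Aff3, which binds the control elements of the region, rose by 4.40. These calls stand beside 59.6% of all genes called on that day, and their part in the allelic shift was not tested.

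By profile over the 15 TX1072 libraries, the genes most like Meg3 among 11862 with a mean of at least 100 counts were Mirg (Pearson's r = 0.985 on log2(CPM + 1)), Miat (0.983), Slc45a1 (0.981), Gm37899 (0.979) and Rian (0.978). Gm37899 lies between Rian and Mirg. Over the 30 libraries of the deletion lines, Mirg again was first of 11792 genes (0.988), followed by Jakmip2 (0.987), Tubb4a (0.980), Trim12c (0.978) and Kif21a (0.978), with Rian at rank 28 (0.969). The genes most like Dlk1 were Fth1 (0.969), Plekhb1 (0.95), Slc12a8 (0.948), Mt3 (0.942) and Mrpl38 (0.935) in TX1072 and Ccno (0.951), Cyp7b1 (0.946), Trerf1 (0.946), Dtx2 (0.945) and Phc1 (0.932) in the deletion lines, with none in both. The profile of Dlk1 itself correlated with that of Meg3 at 0.580 and 0.520. The libraries share days and replicates, so these values rank genes and carry no p.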

How the data were processed

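Bulk RNA-seq was deposited by the authors as raw counts per gene, in total and per allele. Per the submitters' processing notes and the methods, reads were aligned with STAR 2.5.2b to mm10 with SNPs masked, counted over exons with featureCounts and assigned to an allele by SNPsplit. The strand setting is not given in the sources used here. The single-cell tables hold deposited counts of UMIs from a 3′-end, strand-specific protocol, in total, per allele, and spliced or unspliced. Spike-ins (92 entries per bulk table, with 0% of the counts) were left out. No column belonged to another series.

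CPM (counts scaled to the library size) of bulk libraries used TMM-scaled library sizes, and those of single cells all UMIs of a day. Counts were tested with edgeR 4.0.16 (R 4.3.3; TMM, filterByExpr, quasi-likelihood F test, two-sided, Benjamini-Hochberg adjustment over all genes tested, threshold 0.05). The 15 TX1072 libraries and the 30 of the deletion lines were fitted apart, with the days or line and days as a factor. Allele tests had a term per library, and both alleles of a library shared a size. DESeq2 1.42.0 and other alternatives are described in the closing section. Each fit was tested on simulated data. No replicate pair was identical (45 pairs). Single-cell values were computed in Python 3.11.15 for cells the study retained, with exact intervals at 95%. Intervals cover counting error only.

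Per the study's reporting summary, differentiations were started on separate days for the replicates, and a replicate number thus marks a differentiation. Deviations from the group means correlated with a median of 0.215 over 30 pairs of libraries with the same number in TX1072 (18 over 0.1) and -0.126 over 60 pairs with different numbers. In the deletion lines the medians were 0.270 (135 pairs, 101 over 0.1) and -0.168 (270 pairs).

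Genes named are the 5 genes, the other genes listed for the region, up to 4 genes of each other list by adjusted p for TX1072 day 4, imprinted genes with at least 50 allele-assigned counts per day, and the 5 genes most like Meg3 and Dlk1 in each table. Genes and lists were chosen with earlier results of these data known. Symbols, positions and exons are from GENCODE vM21, sequences around SNPs from its transcripts, and promoters and microRNAs from RefSeq.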

Additional observations from a re-analysis of the deposited data

Results flagged for a closer look

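The change of total Mirg from day 0 to day 4 differed between the deletion lines. The interaction (TXdXicCast minus TXdXicB6) was -0.766 on the log2 scale (SE 0.243, adjusted p = 0.0321 by edgeR), and 15.0% of all genes passed in the same test. Mirg stood at 24.4, 25.9 and 22.3 CPM at day 0 and 192, 209.9 and 193 CPM at day 4 in TXdXicB6, and at 26.4, 26.2 and 33.2 CPM and 152, 170.4 and 91.8 CPM in TXdXicCast. The day 0 libraries of TXdXicCast had degraded RNA, and the part of this in the difference was not tested. Of the 16 such interactions of the 4 tested genes, this was the only call in edgeR. On the ratio of the alleles, 0 of 16 passed in edgeR and in DESeq2, and 0 had an unadjusted p below 0.05.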

How the results depend on the processing

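Calls of the 4 genes over days, for the total level, stayed within 1.5 times under every alternative tried, and their allele calls did so without the 2 TXdXicB6 libraries of lowest allele-assigned share, an alternative chosen after seeing the data. Of the single values, 1180 kept direction and call, 33 moved, 34 lost and 6 gained a call and 11 turned sign. Between the lines, 1 call became 2 with DESeq2, 4 without a filter and 0 to 1 without a replicate. With the replicate block it became 2, and the genes called at day 4 went from 1165 to 1772 (342 to 424 without a replicate). With no replicate block, TX1072 allele calls fell from 11 to 6 (lost: Meg3 on day 4, Rian on days 2 to 4 and Dlk1 on day 2) and the genes called at day 4 from 4831 to 2400. Over days the block changed no call of the 4 genes. DESeq2 called 1338 ratio changes at day 4 in TX1072, where edgeR called 2020. Centred on allele totals, the share was 49.8% for Meg3 in TX1072 at day 3, 45.7% in TXdXicB6 at day 4 and 42.4% in TXdXicCast at day 2, for Rian 25.1, 46.3 and 43.8% in TX1072 on days 1, 3 and 4, 38.1 and 42.5% in TXdXicB6 on days 2 and 4 and 42.5% in TXdXicCast at day 3, and for Mirg 12.8% in TXdXicB6 at day 0. A limit of 80% made 9 combinations monoallelic. With a limit of 10 or 30% for the minor allele, Meg3 was BA in 66.7 or 30.1% of cells on day 1 and 84.7 or 53.5% on day 4. Near 0, signs turned without a replicate for Meg3 in TXdXicB6 at day 1 (-0.17 to 0.0733), for the TX1072 allele ratio at day 2 of Meg3 (-0.13 to 0.0485) and Mirg (-0.10 to 0.0250), and for Dlk1 at day 3 (-0.37 to 0.43; 0.0137 with DESeq2) and day 4 (-0.86 to 0.16). So did the ratio change of Dlk1 in TX1072 at day 1 (-0.16 to 1.26), day 2 (-0.31 to 1.00) and day 3 (-0.0182 to 2.35) and in TXdXicCast at day 4 (-0.21 to 1.12). The Rian difference between lines at day 4 was 0.00628 with a size per allele. The causes were not tested. Few counts limit Dlk1 and Rtl1, and few allele-assigned Meg3 UMIs the cells classed on day 0.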

Other observations

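Snrpn, a paternally expressed gene on another chromosome, differed between the assays. In the single cells its B6 share of allele-assigned UMIs was 4.79, 8.51, 8.14, 5.59 and 3.16% on days 0 to 4, from 146 to 1172 UMIs, whereas the summed bulk counts of TX1072 gave 49.0% on day 0 and 44.6% on day 4. Dio3, at 10.7 CPM in the single cells on day 0, had a B6 share of 5.78% of 173 UMIs there and of 16.5% of 139 UMIs on day 4. On day 4 only 12 of 272 cells had a Dio3 UMI, and 1 cell held 163 of the 255 UMIs, so that share rests largely on few cells. B830012L14Rik went from 2.94% on day 0 to 59.6% on day 4 in the single cells. No test was made of these values.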
